A study of Mus musculus with 7 samples.

Results

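Rab GTPases are small membrane switches, and the genes that encode them were followed here in the retinal pigment epithelium (RPE) of aged mice. Members were the rows whose gene symbol is Rab, a number and at most a letter and a further digit; 59 of the 21861 rows of the count table matched, and all 59 passed the filter on low counts. Symbols of Rab effectors and regulators such as Rab11fip1 or Rab3gap1 did not match and were handled as partner genes. The study compared eyes given an adeno-associated virus (AAV) vector that carries GFP (3 libraries) with eyes given a vector that carries the glutathione transferase GSTA4 (4 libraries). All 7 libraries came from aged mice, all had received a vector, and all were collected 12 weeks after treatment, so neither an untreated nor a young group was analysed here. The labels give no promoter for the vectors, no sex or exact age, and no statement on whether eyes or animals were pooled. Nothing states that each library is from a separate animal, so p-values measure the spread between these libraries, part of which may be technical. Y-linked genes took 0.0287% to 0.0459% of counts in AAV-GFP replicate 1 and AAV-GSTA4 replicates 3 and 4 and at most 0.000256% in the other 4 libraries, so both groups held libraries with and without these transcripts.

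Each Rab protein cycles between a GTP-bound form that recruits effectors to a membrane and a GDP-bound form that is taken off it, and each marks particular compartments. The RPE engulfs the shed tips of photoreceptor outer segments every day. The phagosomes mature through stages marked by Rab5 and then Rab7 before they fuse with lysosomes. The same cells hold melanosomes, lysosome-related organelles whose cargo delivery depends on Rab32 and Rab38 and whose position depends on Rab27a.

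Total counts ranged from 15329181 to 28998964 per library. Levels are given as CPM, the usual depth-scaled count, with trimmed-mean (TMM) scaling of the library sizes, and 3 counts, taken as the smallest detectable level, correspond to 0.111 to 0.176 CPM. None of the 21 RPE markers was at 0 in any library, and they took 3.44% to 7.51% of counts in AAV-GFP and 5.96% to 10.2% in AAV-GSTA4, with 16 of 21 fitted higher and 6 of them at an unadjusted p under 0.05. The 20 rod markers took 1.74% to 6.42% and 0.894% to 1.62%, without overlap, and all 20 had a lower fitted value in AAV-GSTA4. The 20 retinal neuron and synapse markers took 0.212% to 0.431% and 0.0836% to 0.182%, also without overlap. The 14 microglia and macrophage markers took 0.0827% to 0.123% and 0.0775% to 0.0964%. Of these, 13 were fitted lower, 2 of them at an unadjusted p under 0.05, and 1 was higher at that p. All 10 cone markers were fitted lower, 5 of them at that p. Of 10 endothelium markers, 9 were fitted lower, none of them at that p, and 1 was higher at that p. Mueller glia and astrocyte markers took 1.27% to 1.43% and 1.59% to 2.17%, without overlap, with 6 of 10 fitted higher and 4 lower. At an unadjusted p under 0.05, 3 were higher and 1 was lower. Rlbp1 stands in both this list and the RPE list, so the 2 shares are not independent. Lens markers took 12.2% of counts in AAV-GSTA4 replicate 2 and 0.442% to 2.74% in the other 6 libraries, with 12 of 12 tested fitted higher in AAV-GSTA4 and 8 at an unadjusted p under 0.05. AAV-GFP replicate 3 correlated least with the other libraries (mean r of log2 CPM 0.838, against 0.910 to 0.926) and had the highest rod share. The row of the human transgene, hGSTA4, held 221, 251, 2.64 and 43.6 CPM in the 4 AAV-GSTA4 libraries in order of replicate number, and 3 counts or fewer in each AAV-GFP library. The row of the reporter, d2EGFP, held 4.61, 153 and 113 CPM in the AAV-GFP libraries and 8.57, 3.07, 0.411 and 0.958 CPM in the AAV-GSTA4 libraries. The library labelled AAV-GFP replicate 1 thus had less d2EGFP than AAV-GSTA4 replicate 1, which goes against its label, although it had only 3 counts of hGSTA4. In bulk tissue, fewer cells of a type and less RNA per cell cannot be told apart. The part of these marker differences in the values below was not tested. Some fits below use the rod score, the mean log2 CPM of the rod markers, as covariate. By replicate number it was 8.37, 9.21 and 9.82 in AAV-GFP and 8.35, 8.10, 8.39 and 7.54 in AAV-GSTA4. Score and group thus went largely together, and with so few libraries such a fit cannot cleanly separate them.

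No Rab gene passed an adjusted p of 0.05 in edgeR's quasi-likelihood test, where 0% of the 15075 genes tested passed. At an unadjusted p under 0.05 there were 10 of 59 Rab genes (16.9%), against 11.9% of all genes. Of these, 4 were higher in AAV-GSTA4 (Rab8b, Rab20, Rab36 and Rab37) and 6 were lower (Rab5a, Rab6b, Rab12, Rab22a, Rab24 and Rab30), where the background was 5.27% higher and 6.63% lower. In DESeq2, 1 Rab gene (Rab24) passed its adjusted threshold, against 1.3% of the genes that test adjusted, and none passed in limma-voom. The groups did not overlap for 8 Rab genes (13.6%), against 12% of all genes; 2 were higher (background 6.44%) and 6 lower (background 5.61%). The fitted value was above 0 for 25 of 59 Rab genes (42.4%), against 44.6% of all genes. The median log2 fold change was -0.12 over the Rab genes and -0.07 over all genes tested. With library totals in place of TMM scaling these medians were -0.43 and -0.37, and the Rab genes at an unadjusted p under 0.05 became 3 higher and 12 lower. These shares lie near those of all genes, and what follows describes single members.

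Of the 10, Rab5a and Rab36 kept an unadjusted p under 0.05 in each of the 17 alternative fits. Rab20 and Rab24 did so in 16, Rab22a in 15, Rab8b in 13, Rab30 in 12, Rab6b in 10, Rab37 in 9 and Rab12 in 4. The 10 were picked by this p in the main fit, and the alternatives refit the same libraries. These counts are therefore no independent support, and the same count over all genes is not given. The count of 10 rested partly on AAV-GSTA4 replicate 3, without which it was 5 (Rab5a, Rab20, Rab22a, Rab24 and Rab36). Without AAV-GSTA4 replicate 4 there were 8, of which the same 5 were shared with the full data. Without the library labelled AAV-GFP replicate 1, whose d2EGFP was low, there were 10, of which 9 were shared (Rab12 was lost and Rab26 gained), and the log2 fold changes of Rab5a, Rab20, Rab22a, Rab24 and Rab36 were -0.80, 1.25, -1.08, -1.49 and 1.06. Without AAV-GFP replicate 3 there were again 10, of which 6 were shared with the full data.

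**Figure D1:**
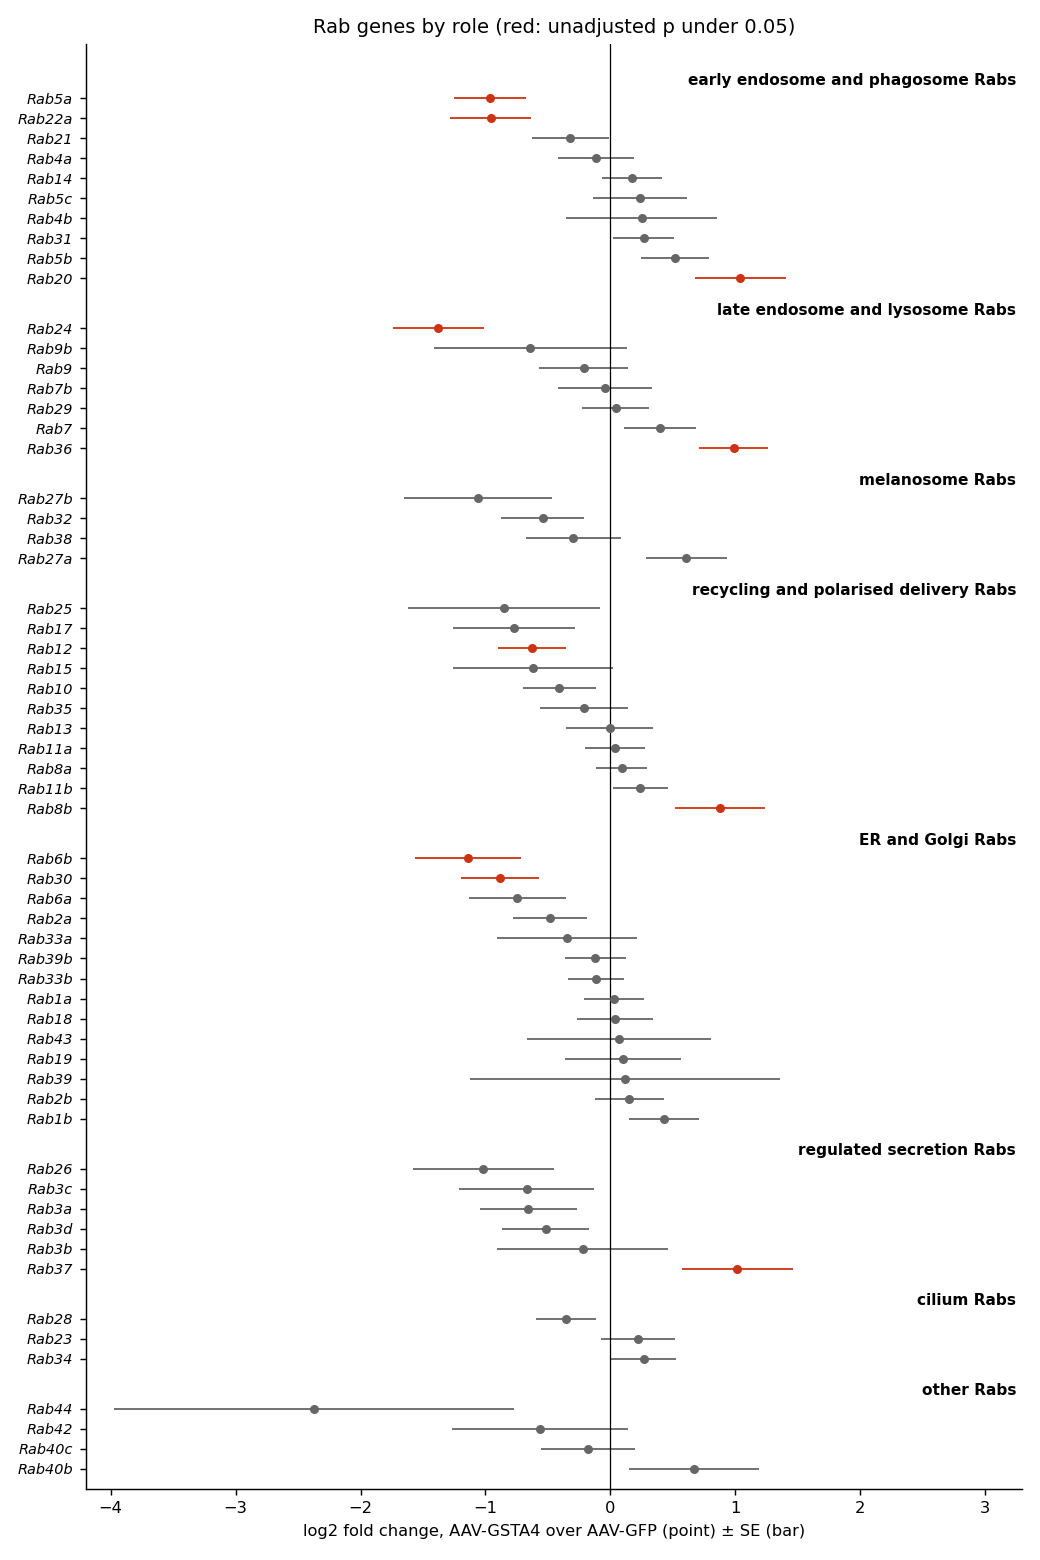
Fitted log2 fold changes of the 59 Rab genes, AAV-GSTA4 over AAV-GFP (horizontal axis), with their standard errors as bars, grouped by role. Red marks the 10 genes with an unadjusted p under 0.05, which lie on either side of 0; none passed after adjustment.

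Sequences upstream of the Rab genes were searched because MITF and TFEB, transcription factors of pigment cells and of lysosomal genes, bind CACGTG. RefSeq entries (GRCm38.p6) matched 48 of the 59 Rab genes, and the 250 bases before each start were read on both strands. CACGTG was found in 5 of the 48 genes (10.4%: Rab5a, Rab20, Rab21, Rab23 and Rab27a), against 6.86% of 27025 genes with an entry. The longer form CACGTGAC, which overlaps it, was found in 2 (4.17%: Rab5a and Rab21), against 2.11%. CATGTG was found in 5 genes (10.4%), against 13.8%. TGACNNNGC, the core of the antioxidant response element read by NRF2, was found in 6 (12.5%: Rab4b, Rab7, Rab8a, Rab8b, Rab25 and Rab43), against 11.5%. A match is a run of letters and not a measured site. Shown are windows of Rab5a and Rab8b, which are described below with groups that did not overlap, and of the melanosome gene Rab27a, with the matched letters in capitals. The groups also did not overlap for Rab12, Rab22a, Rab24 and Rab32, whose windows held no match, and for Rab30 and Rab36, which had no entry. All other Rab genes with CACGTG or TGACNNNGC had overlapping groups. Of the genes with CACGTG, Rab5a was fitted lower and Rab20 higher. A link between match and change was not tested. The Rab5a window (plus strand, chr17:53478984-53479233) ends where the gene starts and holds CACGTG at 2 places. The Rab8b window (minus strand, chr9:66919706-66919955) holds TGACNNNGC. The Rab27a window (plus strand, chr9:73063898-73064147) precedes a start inside the gene, in an intron per GENCODE M21; the window before the gene's first start, also searched, held no match to these motifs.
Rab5a: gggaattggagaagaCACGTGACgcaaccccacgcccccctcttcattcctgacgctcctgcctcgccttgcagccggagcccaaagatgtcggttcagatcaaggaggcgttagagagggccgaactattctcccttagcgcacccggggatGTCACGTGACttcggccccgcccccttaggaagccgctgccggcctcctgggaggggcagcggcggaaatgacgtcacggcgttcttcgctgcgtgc
Rab8b: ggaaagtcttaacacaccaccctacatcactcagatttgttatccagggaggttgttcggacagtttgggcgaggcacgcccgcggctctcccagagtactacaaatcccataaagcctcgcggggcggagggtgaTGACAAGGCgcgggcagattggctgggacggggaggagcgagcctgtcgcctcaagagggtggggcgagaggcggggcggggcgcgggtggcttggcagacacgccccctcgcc
Rab27a: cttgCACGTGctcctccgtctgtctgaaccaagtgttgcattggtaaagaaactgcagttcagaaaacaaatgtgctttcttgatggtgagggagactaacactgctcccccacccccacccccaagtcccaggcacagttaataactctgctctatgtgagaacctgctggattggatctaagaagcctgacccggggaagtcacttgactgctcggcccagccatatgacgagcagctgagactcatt

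Among the 10 Rab genes of early endosomes and phagosomes, 1 was higher and 2 were lower at an unadjusted p under 0.05. Of all genes tested, 5.27% were higher and 6.63% lower by this rule, and a list this short cannot be told from that share. Rab5a (chromosome 17, 53479234 to 53507678, GRCm38.p6) encodes the Rab that drives fusion of early endosomes and of new phagosomes. In the AAV-GFP libraries, here and below in order of replicate number, it stood at 59.4, 54.2 and 33.2 CPM, and in the AAV-GSTA4 libraries at 28.4, 28.3, 15.9 and 27.7 CPM. Every AAV-GSTA4 library lay below every AAV-GFP library, and AAV-GSTA4 replicate 3 was the lowest. The means were 48.9 CPM ± 13.9 (SD, n = 3) and 25.1 CPM ± 6.15 (SD, n = 4). This gave a log2 fold change of -0.96 ± 0.29 (SE), and edgeR's adjusted p was 0.363. Over the alternatives adjusted p ranged from 0.0589 to 0.865 and the log2 fold change from -1.47 to -0.79. The value of -1.47 came from the fit with the rod score, the mean log2 CPM of the rod markers, as covariate. In GENCODE M21, 221 of its 5270 exon bases are shared with Pp2d1 on the opposite strand, which stood at 0 to 0.672 CPM.

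The other 2 Rab5 genes encode closely related proteins of the same compartment and had fitted values above 0. Rab5b stood at 157, 136 and 108 CPM in AAV-GFP and at 221, 121, 214 and 209 CPM in AAV-GSTA4. AAV-GSTA4 replicate 2, the library with the large lens share, fell among the AAV-GFP libraries and the other 3 lay above them. Between the groups, the log2 fold change was 0.52 ± 0.27 (SE, adjusted p = 0.472 in edgeR's test). Over the alternatives it ranged from 0.25, with library totals, to 0.70, and was 0.30 with the rod score as covariate. Rab5c overlapped fully, at 23.0, 48.3 and 40.7 CPM against 50.6, 24.9, 67.2 and 33.3 CPM, and its log2 fold change of 0.24 ± 0.37 (SE) became -0.093 with library totals.

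Rab20, which encodes a Rab of endosomes and maturing phagosomes, stood at 37.2, 33.4 and 17.7 CPM in AAV-GFP and at 73.2, 32.8, 81.4 and 55.0 CPM in AAV-GSTA4. AAV-GSTA4 replicate 2 again lay within the AAV-GFP range, and the other 3 were above it. Its fitted log2 fold change was 1.04 ± 0.36 (SE, adjusted p = 0.373 in edgeR's test) and 0.80 with library totals. Of its 1392 exon bases, 356 are shared with the noncoding gene E230013L22Rik on the opposite strand, for which the table has no row. Rab22a, a Rab of early and recycling endosomes, stood at 15.5, 19.7 and 21.6 CPM and at 14.2, 10.5, 7.05 and 7.15 CPM. Its groups did not overlap, but the library labelled AAV-GFP replicate 1 and AAV-GSTA4 replicate 1 were close. The log2 fold change was -0.96 ± 0.32 (SE, adjusted p = 0.363 in edgeR's test) and -0.52 with the rod score as covariate. The remaining 5 genes of the list (Rab4a, Rab4b, Rab14, Rab21 and Rab31) had log2 fold changes from -0.32 to 0.27 and overlapping groups.

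**Figure D2:**
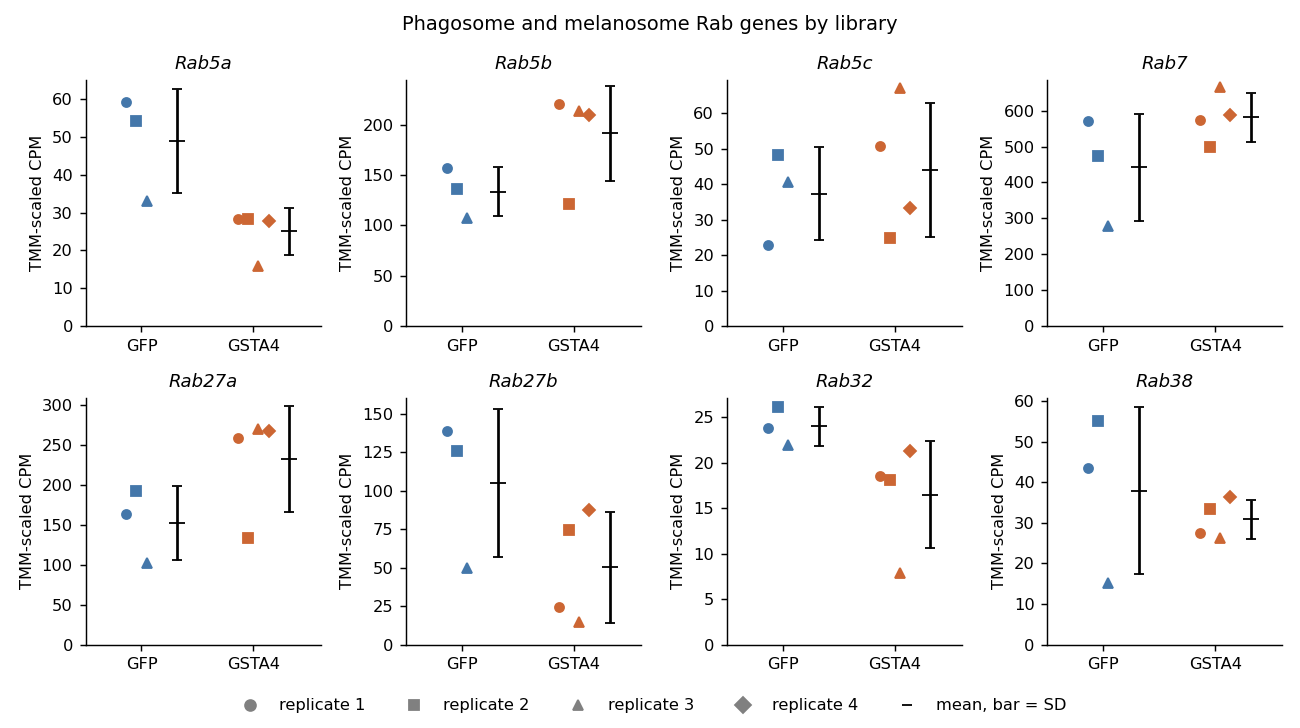
TMM-scaled CPM (vertical axis, from 0) of 8 phagosome and melanosome Rab genes in each library of AAV-GFP (blue) and AAV-GSTA4 (orange), with marker shape for the replicate and the mean and SD in black. The groups separate for Rab5a and Rab32, both lower in AAV-GSTA4, and overlap for the other 6.

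Among the 7 genes of late endosomes and lysosomes, 1 was higher and 1 lower at an unadjusted p under 0.05. The shares of all genes were 5.27% higher and 6.63% lower. Rab7, whose protein takes late endosomes and phagosomes to fusion with lysosomes, stood at 572, 475 and 278 CPM in AAV-GFP and at 574, 499.7, 667 and 588 CPM in AAV-GSTA4. Only AAV-GFP replicate 3 and, less so, replicate 2 lay below the AAV-GSTA4 libraries, and replicate 1 lay among them. This gave a log2 fold change of 0.40 ± 0.29 (SE, adjusted p = 0.602 in edgeR's test), and it was -0.00016 with the rod score as covariate. Leaving out AAV-GFP replicate 3 gave 0.16, and the value was 0.63 without the library labelled AAV-GFP replicate 1.

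Rab36 (chromosome 10, 75036895 to 75054748) encodes a Golgi and late endosome Rab linked to lysosome positioning. It stood at 23.0, 21.2 and 19.1 CPM in AAV-GFP and at 38.4, 27.0, 57.6 and 44.6 CPM in AAV-GSTA4. The AAV-GFP libraries were within a narrow range and every AAV-GSTA4 library lay above it, with replicate 2 nearest. The means were 21.1 CPM ± 1.96 (SD, n = 3) and 41.9 CPM ± 12.8 (SD, n = 4). Between the groups, the log2 fold change was 0.99 ± 0.28 (SE), and edgeR's adjusted p was 0.363. Over the alternatives adjusted p ranged from 0.0624 to 0.865 and the log2 fold change from 0.70 to 1.17.

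Rab24, an atypical Rab associated with autophagosomes, was a low gene at 6.29, 8.76 and 7.63 CPM in AAV-GFP and 3.00, 2.35, 2.99 and 3.28 CPM in AAV-GSTA4. The groups were well apart, and the 4 AAV-GSTA4 libraries were close to each other. Its fitted log2 fold change was -1.38 ± 0.36 (SE, adjusted p = 0.363 in edgeR's test). In DESeq2 its adjusted p was 0.0263, and over all alternatives adjusted p ranged from there to 0.865. Of its 2015 exon bases in GENCODE M21, 1258 are shared with Prelid1 on the opposite strand. The counting is not stated to use strand, so reads from these bases cannot be assigned to either gene with certainty. Prelid1 itself stood at 91.3 to 115 CPM in AAV-GFP and 69.6 to 124 CPM in AAV-GSTA4, with overlapping groups. The other 4 genes of the list (Rab7b, Rab9, Rab9b and Rab29) had log2 fold changes from -0.64 to 0.04 and overlapping groups.

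None of the 4 melanosome Rab genes had an unadjusted p under 0.05, and their directions differed. Rab27a, which ties melanosomes to actin through the effector MyRIP and the motor myosin VIIa in the RPE, stood at 164, 192 and 102 CPM in AAV-GFP. In AAV-GSTA4 it stood at 258, 133, 271 and 267 CPM. Replicates 1, 3 and 4 of AAV-GSTA4 lay close together above all AAV-GFP libraries, and replicate 2 lay within the AAV-GFP range. The log2 fold change was 0.61 ± 0.32 (SE, adjusted p = 0.479 in edgeR's test). Over the alternatives it ranged from 0.34, with the rod score as covariate, to 0.85. It was 0.35 with library totals and 0.38 without AAV-GFP replicate 3. Without AAV-GSTA4 replicate 2, Rab1b, Rab5b and Rab27a joined the genes at an unadjusted p under 0.05, which then numbered 7 higher and 4 lower.

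Rab27b, a relative of Rab27a used in regulated secretion, stood at 139, 126 and 49.8 CPM in AAV-GFP and at 24.7, 74.7, 14.4 and 87.5 CPM in AAV-GSTA4. Both groups were wide and they overlapped, with AAV-GSTA4 replicates 1 and 3 below all other libraries. This gave a log2 fold change of -1.06 ± 0.59 (SE, adjusted p = 0.496 in edgeR's test) and -2.71 with the rod score as covariate. Rab32, which delivers melanin enzymes to melanosomes, stood at 23.8, 26.2 and 21.9 CPM and at 18.6, 18.1, 7.87 and 21.3 CPM. Its groups did not overlap, although AAV-GSTA4 replicate 4 came close to AAV-GFP replicate 3 and only AAV-GSTA4 replicate 3 was far below. Between the groups, the log2 fold change was -0.54 ± 0.33 (SE, adjusted p = 0.529 in edgeR's test). Rab38, which shares that task and is mutated in the chocolate coat-colour mouse, stood at 43.5, 55.1 and 15.1 CPM and at 27.5, 33.4, 26.2 and 36.3 CPM. AAV-GFP replicate 3 was the lowest library and the other 2 AAV-GFP libraries the highest. The log2 fold change of -0.30 ± 0.38 (SE, adjusted p = 0.780 in edgeR's test) turned to 0.076 without AAV-GFP replicate 2. It was -0.68 without AAV-GFP replicate 3 and -1.04 with the rod score as covariate, the former at an unadjusted p under 0.05. Of the 17 alternatives, 16 kept the negative sign.

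Among the 11 genes of recycling and polarised delivery, 1 was higher and 1 lower at an unadjusted p under 0.05. The shares of all genes were 5.27% higher and 6.63% lower. Rab8b, whose protein directs vesicles from the Golgi and recycling endosomes to the plasma membrane and cilium, stood at 81.3, 68.1 and 25.2 CPM in AAV-GFP and at 89.8, 103, 121 and 114 CPM in AAV-GSTA4. The groups did not overlap, and AAV-GFP replicate 3 was far below the rest. Its fitted log2 fold change was 0.88 ± 0.36 (SE, adjusted p = 0.393 in edgeR's test). It was 0.52 without AAV-GFP replicate 3 and 0.21 with the rod score as covariate. Rab12, which acts between recycling endosomes and lysosomes, stood at 15.5, 12.1 and 18.4 CPM and at 8.68, 10.2, 11.6 and 9.18 CPM. Its groups were separated by less than 1 CPM, and its log2 fold change was -0.62 ± 0.27 (SE, adjusted p = 0.413 in edgeR's test). The recycling endosome genes Rab11a and Rab11b had log2 fold changes of 0.04 ± 0.24 and 0.24 ± 0.22 (SE). Rab25, their epithelial relative, was uneven in both groups, at 5.57 to 17.0 CPM in AAV-GFP and 1.59 to 15.7 CPM in AAV-GSTA4, and its groups overlapped (log2 fold change -0.85 ± 0.77, SE). The other 6 (Rab8a, Rab10, Rab13, Rab15, Rab17 and Rab35) ranged from -0.77 to 0.09.

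Among the 14 ER and Golgi genes, 2 were lower at an unadjusted p under 0.05, against 6.63% of all genes. Rab30, a Golgi Rab, stood at 26.9, 28.3 and 47.4 CPM in AAV-GFP and at 21.9, 24.4, 14.4 and 13.2 CPM in AAV-GSTA4. AAV-GFP replicate 3 was the highest library, and the groups did not overlap. The log2 fold change was -0.89 ± 0.31 (SE, adjusted p = 0.373 in edgeR's test). It was -0.57 without AAV-GFP replicate 3 and -0.30 with the rod score as covariate. Rab6b, the form of the Golgi Rab6 that is abundant in neurons, stood at 37.2, 24.0 and 70.4 CPM and at 33.0, 18.2, 16.4 and 11.9 CPM. AAV-GFP replicate 3, the library richest in rod markers, was again the highest, and AAV-GSTA4 replicate 1 lay within the AAV-GFP range. This gave a log2 fold change of -1.14 ± 0.42 (SE, adjusted p = 0.375 in edgeR's test). It was -0.62 without AAV-GFP replicate 3 and -0.37 with the rod score as covariate.

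Rab6a, the ubiquitous form, stood at 119.5, 79.7 and 90.3 CPM and at 99.7, 63.7, 29.3 and 37.7 CPM, a log2 fold change of -0.74 ± 0.39 (SE, adjusted p = 0.472 in edgeR's test). Of its 3728 exon bases, 708 are shared with Mrpl48 on the opposite strand. The ER-to-Golgi genes Rab1a and Rab1b had log2 fold changes of 0.03 ± 0.24 and 0.43 ± 0.28 (SE). Rab2a had -0.48 ± 0.30 (SE), which was -0.75 without AAV-GFP replicate 3 and -0.83 with the rod score as covariate, the former at an unadjusted p under 0.05. Rab18, a Rab of the ER and lipid droplets, had 0.04 ± 0.30 (SE). The other 7 genes of the list ranged from -0.35 to 0.15. Among them, Rab43 shares 4164 of its 5526 exon bases with Gm45140 on the same strand, as Rab4b of the early endosome list shares 1280 of 1970 with Gm21983, so the level of either gene depends on how reads in shared bases were counted.

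**Figure D3:**
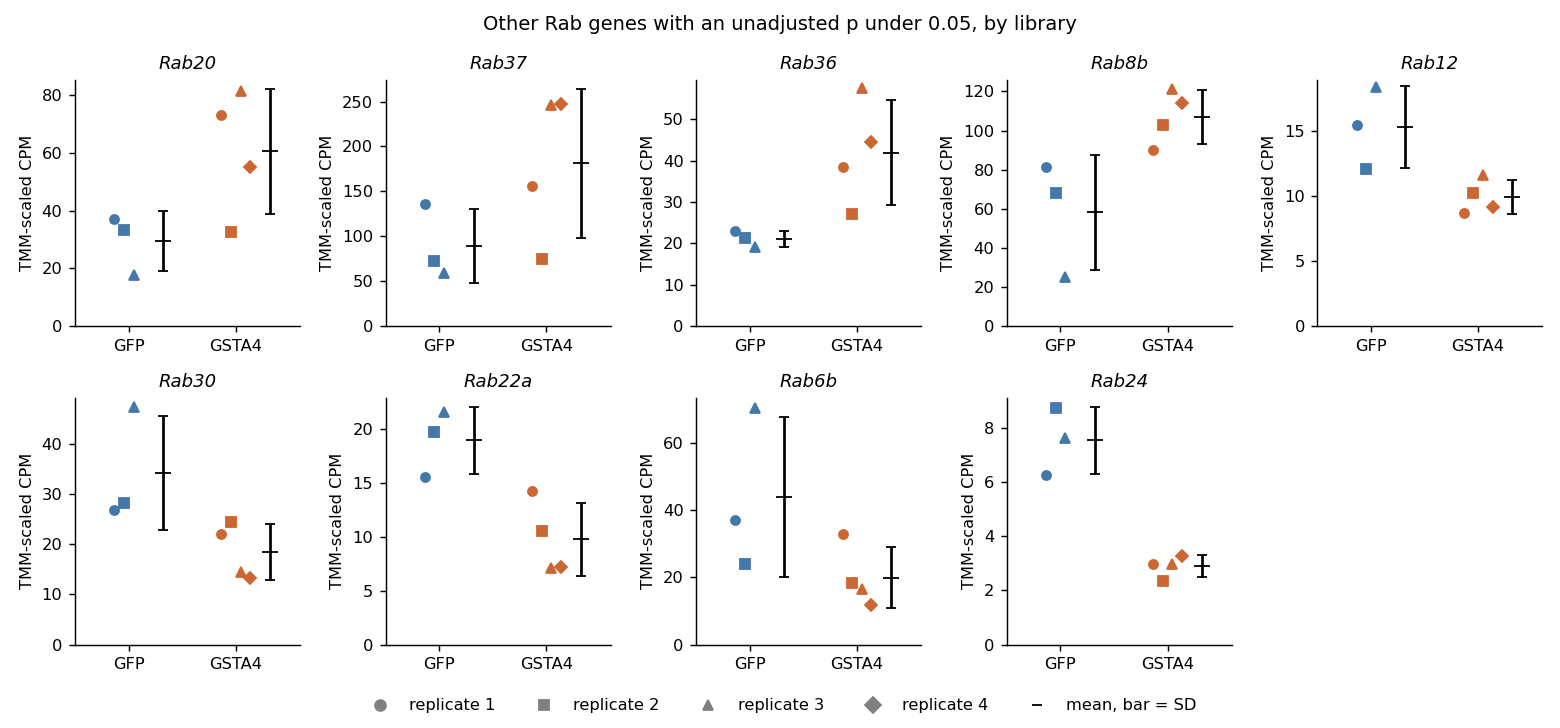
TMM-scaled CPM (vertical axis, from 0) of the 9 Rab genes other than Rab5a with an unadjusted p under 0.05, in each library of AAV-GFP (blue) and AAV-GSTA4 (orange), with the mean and SD in black. AAV-GFP replicate 3 (blue triangle) is the lowest library for Rab8b, at 25.2 CPM, and the highest for Rab6b, at 70.4 CPM.

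Of the 6 genes of regulated secretion, 5 had a lower fitted value and 1 was higher at an unadjusted p under 0.05. Of the 15075 genes tested, 8355 had a lower fitted value and 5.27% were higher at that p. Rab37, a Rab of secretory granules, stood at 136, 72.9 and 59.2 CPM in AAV-GFP and at 156, 74.8, 246 and 247 CPM in AAV-GSTA4. AAV-GSTA4 replicate 2 lay within the AAV-GFP range, and replicates 3 and 4 were the highest. Between the groups, the log2 fold change was 1.02 ± 0.44 (SE, adjusted p = 0.411 in edgeR's test) and 0.40 with the rod score as covariate. Rab3a, the Rab of synaptic vesicles, stood at 119.6, 85.9 and 187 CPM and at 142, 55.4, 78.3 and 56.1 CPM. Its log2 fold change of -0.66 ± 0.38 (SE, adjusted p = 0.512 in edgeR's test) was -0.05 with the rod score as covariate. Rab3b, Rab3c, Rab3d and Rab26 ranged from -1.02 to -0.22.

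Among the 3 cilium genes, none had an unadjusted p under 0.05. Rab28, which is needed for shedding of cone outer segments, stood at 226, 181 and 130.2 CPM and at 163, 133, 138 and 126 CPM, with a log2 fold change of -0.36 ± 0.24 (SE). Without AAV-GFP replicate 3 the value was -0.54, and in 3 of the 17 alternative fits, that one included, its unadjusted p was under 0.05. Rab23 and Rab34, which act in cilium signalling and assembly, had 0.22 ± 0.30 and 0.27 ± 0.26 (SE). The 4 genes outside the role lists (Rab40b, Rab40c, Rab42 and Rab44) were at a mean of 0.719 to 5.17 CPM. Rab44 was at 0 in AAV-GSTA4 replicates 3 and 4.

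Levels of different genes were compared per kilobase of annotated exon, from the GENCODE M21 union of exons. In AAV-GFP, Rab7 had the highest mean, at 169 CPM per kb (lowest to highest library 107 to 219). Rab2a followed at 129 (76.0 to 171), Rab1b at 85.3 (72.4 to 107), Rab1a at 73.0 (54.2 to 82.3) and Rab11a at 66.3 (47.7 to 82.0). The ranges of these neighbours overlap. Within libraries Rab7 was above Rab2a in 3 of 3 AAV-GFP and 4 of 4 AAV-GSTA4 libraries. Rab2a was above Rab1b in 3 of 3 and 1 of 4, Rab1b above Rab1a in 2 of 3 and 4 of 4, and Rab1a above Rab11a in 3 of 3 and 3 of 4. In AAV-GSTA4 the order began with Rab7 at 223 CPM per kb, Rab1b at 115 and Rab2a at 92.4. Rab27a, at 39.3 in AAV-GFP and 59.9 in AAV-GSTA4, was the highest melanosome Rab, above Rab38 at 24.05 and 19.6, Rab32 and Rab27b. Rab5b was the highest Rab5 gene at 31.8 and 45.5 CPM per kb.

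**Figure D4:**
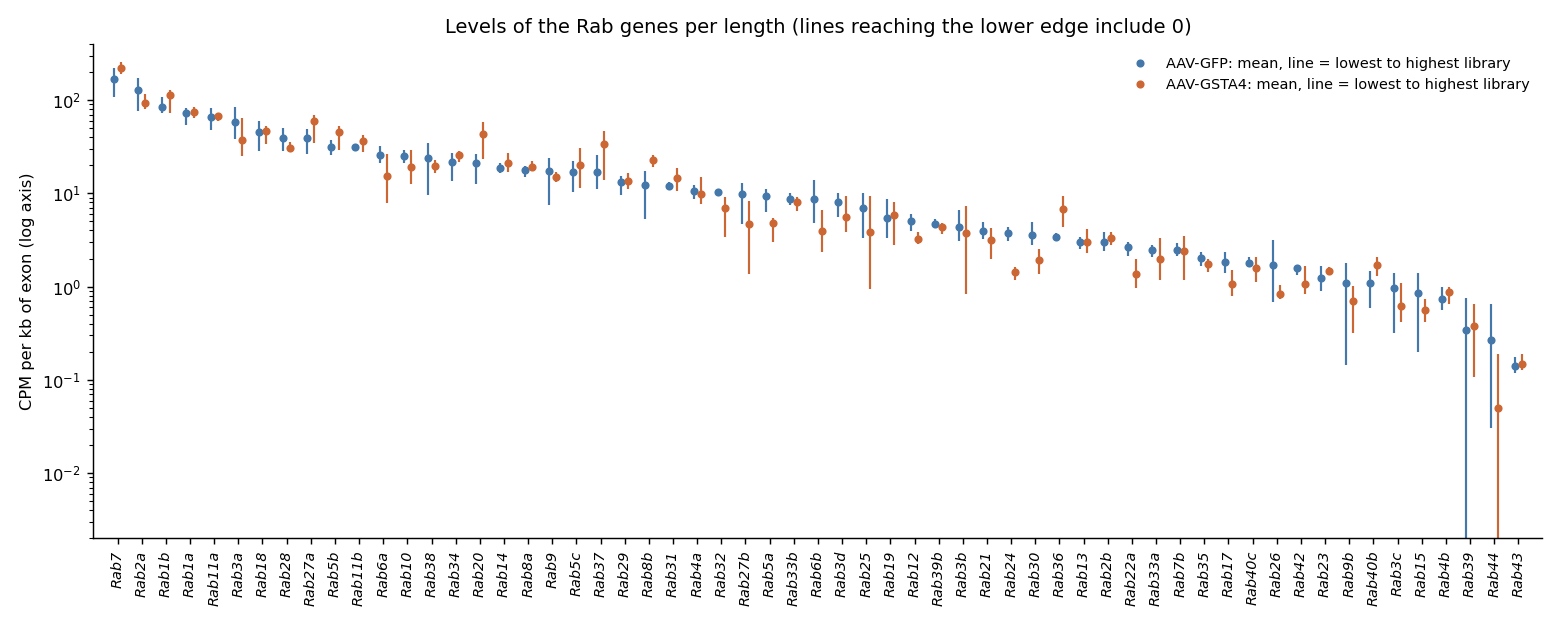
Level of each of the 59 Rab genes in CPM per kb of exon (vertical axis, logarithmic), ordered by the AAV-GFP mean, for AAV-GFP (blue) and AAV-GSTA4 (orange). Points are means and lines run from the lowest to the highest library; Rab7 leads in both groups, at 169 and 223.

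Ratios between related genes do not depend on how libraries are scaled. Of 22 pairs (genes with the same Rab number, and Rab32 with Rab38), 21 had at least 10 counts of each gene in every library. The groups did not overlap in 3 of these 21. For single genes this held for 12% of all genes tested, and no share over other gene pairs is given. They are given as a description, without a test, since the pairs hold genes already known to be separated. The log2 ratio of Rab5a to Rab5b counts was -1.40, -1.33 and -1.70 in AAV-GFP and -2.96, -2.10, -3.75 and -2.91 in AAV-GSTA4. Every AAV-GSTA4 library thus held less Rab5a relative to Rab5b than any AAV-GFP library, with replicate 3 farthest. The log2 ratio of Rab8a to Rab8b was 0.15, 0.43 and 1.49 in AAV-GFP and -0.16, -0.35, -0.36 and -0.14 in AAV-GSTA4. Rab8a had more counts than Rab8b in all AAV-GFP libraries and fewer in all AAV-GSTA4 libraries. The log2 ratio of Rab40b to Rab40c, both low genes, was -1.11, -2.06 and -1.10 and then -0.62, -0.16, -0.94 and -0.26.

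The ratio of Rab27a to Rab27b overlapped because AAV-GSTA4 replicate 2, at 0.83, lay below AAV-GFP replicate 3, at 1.03. AAV-GSTA4 replicates 1, 3 and 4 had 3.39, 4.23 and 1.61, and AAV-GFP replicates 1 and 2 had 0.24 and 0.61. The ratio of Rab32 to Rab38 ranged from -1.08 to 0.54 in AAV-GFP and from -1.73 to -0.57 in AAV-GSTA4. Reads from near-identical copies depend on the counting rule for multiple matches, which is not stated.

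**Figure D5:**
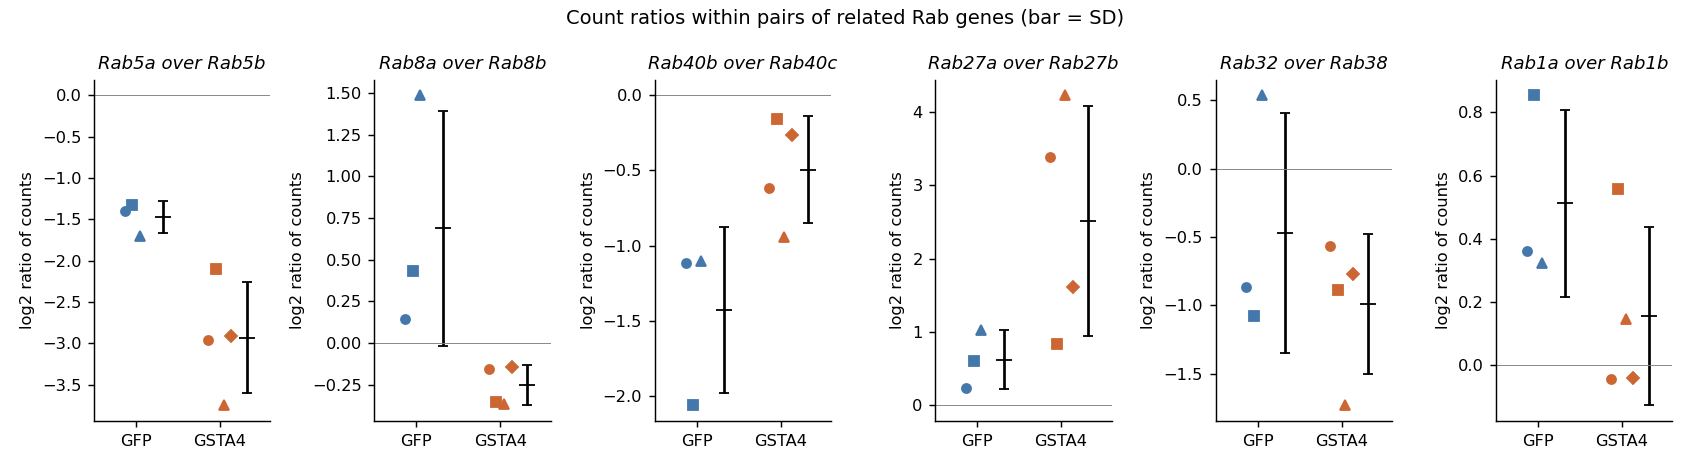
Log2 ratio of counts (vertical axis) within 6 pairs of related Rab genes in each library of AAV-GFP (blue) and AAV-GSTA4 (orange), with marker shape for the replicate (circle 1, square 2, triangle 3, diamond 4) and the mean and SD in black. The groups separate for Rab5a over Rab5b, Rab8a over Rab8b and Rab40b over Rab40c and overlap for the other 3.

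Summed over the Rab genes, the share of all counts was 0.466%, 0.428% and 0.425% in the AAV-GFP libraries and 0.428%, 0.318%, 0.392% and 0.410% in the AAV-GSTA4 libraries. The lowest was AAV-GSTA4 replicate 2, where lens markers took 12.2%. Summed as TMM-scaled CPM, the Rab genes came to 4715, 4085 and 3123 in AAV-GFP. The sums were 4437, 3516, 4514 and 4380 in AAV-GSTA4. The mean share was lower with GSTA4 (0.387% against 0.440%), whereas the mean summed CPM was higher (4212 against 3974). The groups overlapped by either measure, so the direction of the Rab total rests on the scaling. By TMM-scaled CPM, AAV-GFP replicate 3 was the lowest of the 7 libraries for 21 of the 59 Rab genes and the highest for 10. Its TMM factor was 1.36, the highest, and a larger factor lowers the CPM of every gene. The factors were 0.989, 1.05 and 1.36 in AAV-GFP and 0.966, 0.904, 0.868 and 0.936 in AAV-GSTA4, without overlap. TMM scaling thus raised levels in AAV-GSTA4 relative to AAV-GFP for every gene, compared with scaling by library totals. These counts of libraries are given without the same count over all genes. AAV-GSTA4 replicate 3, which had the least hGSTA4 of its group, was the lowest for 13 and the highest for 7. AAV-GSTA4 replicates 1 and 2, which had the most hGSTA4, were the lowest for 5 and 6 and the highest for 9 and 2. For Rab5a, Rab20, Rab22a and Rab36, the AAV-GSTA4 library farthest from the AAV-GFP mean was replicate 3, and for Rab24 it was replicate 2.

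Partner genes act on Rab proteins or are recruited by them. The list matched 143 rows, of which 142 were tested, and none passed an adjusted p of 0.05 in edgeR's test. At an unadjusted p under 0.05 there were 16 (11.3%, against 11.9% of all genes), 13 higher and 3 lower. With library totals the split was 2 higher and 11 lower, so the direction of this count rests on the scaling. The higher count was 8 without AAV-GSTA4 replicate 3 and 7 without replicate 4, and the lower count was 7, 6 and 6 without the library labelled AAV-GFP replicate 1, AAV-GFP replicate 2 and AAV-GSTA4 replicate 1. In DESeq2, Myo7a (adjusted p = 0.0354) and Tbc1d2 (0.0475) passed.

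None of the 7 genes that attach lipid anchors to Rab proteins or recycle them had an unadjusted p under 0.05. Chm, which encodes the escort protein lost in choroideremia, a degeneration of RPE, choroid and photoreceptors, stood at 74.6, 62.4 and 25.2 CPM in AAV-GFP. In AAV-GSTA4 it stood at 42.0, 68.2, 63.4 and 55.5 CPM, with a log2 fold change of 0.08 ± 0.35 (SE).

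Of the 36 exchange factor and cofactor genes, 1 was higher at an unadjusted p under 0.05, against 5.27% of all genes. Hps4, which with Hps1 forms the exchange factor for Rab32 and Rab38, stood at 13.3, 19.6 and 15.5 CPM in AAV-GFP and at 37.0, 21.0, 29.3 and 23.2 CPM in AAV-GSTA4. The groups did not overlap, but AAV-GFP replicate 2 and AAV-GSTA4 replicate 2 were close. Its fitted log2 fold change was 0.78 ± 0.28 (SE, adjusted p = 0.373 in edgeR's test). Hps1 stood at 6.98, 10.4 and 4.65 CPM and at 10.5, 9.88, 11.6 and 12.0 CPM, with overlapping groups and a log2 fold change of 0.58 ± 0.34 (SE, adjusted p = 0.512 in edgeR's test).

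Of the 24 tested melanosome effector and motor genes, 3 (12.5%) were higher at an unadjusted p under 0.05 and none was lower, against 11.9% of all genes in either direction. Myo7a, the myosin that carries melanosomes and phagosomes in the RPE, stood at 62.3, 61.6 and 49.5 CPM in AAV-GFP and at 102, 79.2, 124 and 129 CPM in AAV-GSTA4. All AAV-GSTA4 libraries lay above all AAV-GFP libraries, with replicate 2 nearest. The log2 fold change was 0.91 ± 0.23 (SE, adjusted p = 0.363 in edgeR's test) and ranged from 0.63 to 1.05 over the alternatives. Myrip, which links Rab27a to this myosin, stood at 53.6, 63.4 and 66.7 CPM and at 115, 55.2, 101 and 76.2 CPM, with overlapping groups and a log2 fold change of 0.50 ± 0.27 (SE). Mlph, the Rab27a effector of skin melanocytes, stood at 20.7, 39.3 and 19.7 CPM and at 17.9, 14.9, 15.8 and 32.7 CPM, with overlapping groups and a log2 fold change of -0.39 ± 0.36 (SE). Sytl3 and Ap3b1 were the other 2 higher genes, with log2 fold changes of 1.03 ± 0.38 and 0.57 ± 0.25 (SE).

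Of the 35 GTPase activating protein genes, which switch Rab proteins off, 4 were higher and 3 lower at an unadjusted p under 0.05, where 5.27% of all genes were higher and 6.63% lower. Tbc1d2, which acts on Rab7, stood at 40.1, 43.5 and 45.6 CPM in AAV-GFP and at 103, 55.0, 103 and 75.2 CPM in AAV-GSTA4. The groups did not overlap, and replicate 2 of AAV-GSTA4 was the nearest to AAV-GFP. This gave a log2 fold change of 0.96 ± 0.26 (SE, adjusted p = 0.363 in edgeR's test). Tbc1d1, Tbc1d14 and Tbc1d22a had 0.70 ± 0.23, 0.56 ± 0.23 and 0.71 ± 0.23 (SE). Tbc1d30, Rabgap1l and Usp6nl, a regulator of Rab5, had -1.27 ± 0.41, -0.57 ± 0.23 and -0.71 ± 0.24 (SE). Of the 40 endosome and phagosome effector genes, 5 (12.5%) were higher (Rilpl2, Plin3, Rabepk, Exoc2 and Exoc4) and none was lower, against 11.9% of all genes in either direction, with log2 fold changes from 0.54 to 0.67.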

How the data were processed

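RNA of aged mouse RPE was sequenced from 7 libraries, 3 AAV-GFP and 4 AAV-GSTA4, with a low-input template-switching kit and transposase fragmentation, per the labels' protocols. Molecular identifiers are not mentioned, and the floor covers only the error of counting. As deposited by the authors, the data are 1 table of raw read counts per gene symbol. STAR 2.7.1a and featureCounts 1.6.2 are named in the submitters' processing notes, which list mouse (GRCm38) and human builds without roles; annotation, strand and multi-mapping settings are not given in the sources used here. Columns were matched to libraries by library name, and replicates are numbered by title.

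Counts were fitted with edgeR 4.0.16 (R 4.3.3): quasi-likelihood F-test, group as the only factor, TMM scaling, default expression filter (15075 genes), robust dispersion, Benjamini-Hochberg adjustment over all genes, threshold 0.05. Standard errors are the log2 fold change over the square root of F. Alternatives were other scalings and filters, replicate blocks, a rod or Y-linked score as covariate, DESeq2 1.42.0, limma-voom (limma 3.58.1) and each library left out. For 24 repeated symbols the row with most counts was used under that symbol. Ratios of counts used a pseudocount of 0.5. Every pair of libraries differed by more than counting noise (chi-square per gene at least 57.5). The fit was tested on simulated data.

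The Rab genes, role lists and partner list were chosen with earlier results of these data known. Values per library are given for Rab5a, Rab5b, Rab5c, Rab7, the melanosome Rab genes, every Rab gene at an unadjusted p under 0.05, and the partner genes Chm, Hps1, Hps4, Mlph, Myo7a and Myrip, and other partner genes are named at an unadjusted p under 0.05. Other genes given by library (Rab3a, Rab6a, Rab28, Tbc1d2, Exoc2), the ratio pairs and the motifs were chosen after values were seen.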

Additional observations from a re-analysis of the deposited data

Results flagged for a closer look

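In the 59 Rab genes, 9 had an AAV-GSTA4 library set apart from the other 3, with a gap to the nearest library, as a share of the group's range, above Dixon's critical value (15.3%). The same rule picked out 7.31% of the 15075 genes tested, and chance gives about 5% of groups. Replicate 2, with 12.2% of counts on lens markers, was the isolated lowest library for Rab1b (165 CPM against 290.5 to 295, gap 0.967 of the range), Rab27a (133 against 258 to 271, 0.911) and Rab5b (121 against 209 to 221, 0.882). Replicate 3 was the isolated lowest for Rab5a (15.9 CPM against 27.7 to 28.4, 0.946). Replicate 1 was the isolated highest for Rab4a (26.3 CPM against 13.6 to 14.7, 0.915) and Rab3c (the others at 5.03 to 6.17, gap 0.859). Replicate 4 was the isolated highest for Rab3d (39.3 CPM against 16.1 to 19.9, 0.836) and Rab42 (1.25 against 0.631 to 0.705, 0.882). Replicate 2 was the isolated highest for Rab44 (0.959 CPM against 0 to 0.0526, 0.945).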

How the results depend on the processing

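Over 17 alternatives, values were taken for the 17 Rab genes chosen by the rule for values by library (not Rab3a, Rab6a or Rab28). Of these 289 values, 283 kept direction and side of the adjusted threshold. In the main fit 0 of 15075 genes passed it, so its side was nearly fixed beforehand. Because 10 of the 17 genes had an unadjusted p under 0.05 in that fit, the 283 are no measure of robustness. Rab24 passed in DESeq2. Direction reversed for Rab5c with library totals (-0.093) and across the fits that leave out 1 library (-0.035 to 0.47), for Rab7 with the rod score (-0.00016), and for Rab38 across those fits (-0.68 to 0.076). The count of Rab genes past the adjusted threshold was 0 except 1 with DESeq2, and that of partner genes was 0 except 2 with DESeq2. Rab genes higher at an unadjusted p under 0.05 (4) numbered 1 with the rod score and 2 to 7 with a library left out (2 without AAV-GSTA4 replicate 3 or 4, 7 without replicate 2). Those lower (6) numbered 12 with library totals, 3 with the rod score, 11 with limma-voom and 3 to 8 with a library left out (3 without AAV-GSTA4 replicate 3). Partner genes higher (13) numbered 2 with library totals and 7 to 15 with a library left out. Those lower (3) numbered 11 with library totals, 5 with at least 10 counts in every library, 1 with the rod score, 10 with limma-voom and 2 to 7 with a library left out. The median log2 fold change of the Rab genes (-0.12) was -0.43 with library totals, where all genes were at -0.37, and -0.33 with the rod score, where all genes were at 0.02. The causes were not tested.

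With a replicate block by title number, Rab genes higher numbered 2 and lower 5, sharing 4 of the 10, and partner genes numbered 3 higher and 0 lower. With a block by library name number, 8 of the 10 were shared. Deviations of same-numbered libraries correlated at -0.09, 3.3e-05 and 0.009 by title and at -0.09, 0.015 and -0.13 by library name, so the numbers were not taken to pair libraries. Low genes such as Rab39 and Rab44, near 1 CPM, are limited by depth.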

Other observations

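The exocyst, the tethering complex that Rab8 and Rab11 vesicles use at the plasma membrane, was looked at after its values were seen. Of its 9 genes, Exoc1, Exoc2 and Exoc4 were higher in every AAV-GSTA4 library than in any AAV-GFP library, as were 6.44% of all genes tested. Exoc2 stood at 58.1, 54.2 and 52.1 CPM in AAV-GFP and at 91.2, 81.4, 73.1 and 72.9 CPM in AAV-GSTA4, a log2 fold change of 0.54 ± 0.19 (SE, adjusted p = 0.373 in edgeR's test). Exoc4 had 0.63 ± 0.27 and Exoc1 0.62 ± 0.28 (SE). Exoc3, Exoc5, Exoc6b and Exoc8 lay between -0.01 and 0.03, Exoc6 was at -0.20 and Exoc7 at 0.30, all with overlapping groups. With library totals Exoc2 was at 0.25 and Exoc1 and Exoc4 at 0.38.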
